A study of Mus musculus with 2 samples.

Results

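The AP-1 transcription factors were taken as 10 genes by symbol, namely the Fos genes Fos, Fosb, Fosl1 and Fosl2, the Jun genes Jun, Junb and Jund, and Atf3, Batf and Maff, out of 55536 genes in the deposited tables. All 10 symbols matched 1 gene identifier each. The RNA came from the nuclear compartment of bone marrow-derived macrophages, which are primary cells grown from the marrow of C57BL/6J mice. Cells had received 100 ng/ml lipid A, the part of bacterial lipopolysaccharide that TLR4 recognises, for 50 min. Per the labels the RNA was nucleoplasmic, depleted of ribosomal RNA, and sequenced as 2 biological replicates of 1 group, from 1 µg of RNA in replicate 2 and 500 ng in replicate 1. Sex and age were not collected, both replicates carry the same donor identifier in the labels, and nothing says whether the cultures were grown apart. Spreads between them may therefore be partly technical. No untreated library was analysed here, so none of the levels below is a response to lipid A.

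AP-1 is a dimer of proteins with a basic region that touches DNA and a leucine zipper that holds the pair together. Jun proteins can pair with each other or with Fos proteins, whereas Fos proteins need a partner. In macrophages, signals from TLR4 run through the ERK, JNK and p38 kinases, which phosphorylate these factors and switch on transcription of several of their genes within minutes. Fos, Fosb, Jun, Junb and Atf3 are classical immediate early genes, transcribed without new protein synthesis. Many cytokine and matrix protease genes hold AP-1 sites.

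The gene rows summed to 20495545 expected counts in replicate 2, against 10342882 in replicate 1. All 8 macrophage markers were at or above 10 TPM (transcripts per 1000000) in each library, with Lyz2 highest at 1507 TPM in replicate 2, against 1461 TPM in replicate 1. None of 12 markers of other cell types reached 1 TPM in both, and their summed level was 1.82 TPM in replicate 2, against 2.38 TPM in replicate 1. Nuclear protein-coding genes made up 17.0% of summed TPM in replicate 2 and 26.2% in replicate 1, so TPM of most coding genes ran lower in replicate 2. For that reason comparisons between members are also given as shares of their summed TPM within a library, which this shift does not touch.

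The coding DNA for the part of the basic region that touches DNA is shown for all 10 genes. Its likeness bears on whether reads of 1 member could be given to another. Genes outside the 10 were not compared over this stretch. Each line is 27 bases, 5′ to 3′ on the coding strand, from GENCODE M21 transcripts on GRCm38 (mm10). Capitals mark the codons of the asparagine, the alanine and the last arginine of the stretch. The stretch was located by a pattern that requires these residues, so their presence in all 10 genes was set by the search.
Fos, chr12:85475637-85475663, plus strand: AATaagatggctGCAgccaagtgcCGG
Fosb, chr7:19306595-19306621, minus strand: AACaagctggctGCAgctaagtgcAGG
Fosl1, chr19:5454458-5454484, plus strand: AACaagctagcaGCTgctaagtgcAGA
Fosl2, chr5:32150466-32150492, plus strand: AACaagctagctGCAgccaagtgtCGG
Jun, chr4:95050453-95050479, minus strand: AACcgcattgccGCCtccaagtgcCGG
Junb, chr8:84977581-84977607, minus strand: AACaggctggcgGCCaccaagtgcCGG
Jund, chr8:70699871-70699897, plus strand: AACcgcatcgccGCCtccaaatgcCGC
Atf3, chr1:191172411-191172437, minus strand: AATaaaattgctGCTgccaagtgtCGA
Batf, chr12:85689310-85689336, plus strand: AATcgcatcgctGCCcagaagagcCGA
Maff, chr15:79357565-79357591, plus strand: AACcgcggctacGCGgccagctgcCGC

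Within the Fos genes, 19 to 23 of the 27 bases were identical in each pair, and within the Jun genes 19 to 24. Jun and Jund were the closest pair with 24, and Maff, which belongs to the small Maf proteins, was the most distant, sharing 12 bases with each of Fosb, Fosl1 and Atf3. Even so, no window of 31 bases was shared between any members over all their annotated transcripts. Windows shared with other genes were mostly in antisense orientation. Jund shared 820 of 1638 windows with the antisense gene Gm11175, and Fosl1 shared 1107 of 2031 with Ccdc85b on the opposite strand. Jun shared 202 of 3159 with Junos and Junb 146 of 2241 with Prdx2. The strand setting of the counting is not given in the sources used here, so reads of these pairs cannot be told apart with certainty. Expected counts of the partners were low beside Jun and Junb, with 21.8 in replicate 2 and 21.2 in replicate 1 for Junos. Prdx2 had 172 in replicate 2 and 53.8 in replicate 1. Gm11175 had 0 in replicate 2 and 5.43 in replicate 1. Ccdc85b had 20.2 in replicate 2 and 2 in replicate 1, in both libraries more than Fosl1 itself.

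The last 120 bases before the start are shown for Fos, Fosb, Jun, Junb and Atf3, named above as immediate early genes, from RefSeq on GRCm38.p6. In windows of the same length, not shown, Fosl2 and Jund had no match to the motifs named next. Capitals mark matches, on either strand except for TATAAA, to TGACG, the half-site of the CRE bound by ATF, CREB and Jun proteins, to the variant TRE TGACATCA, and to TATAAA.
Fos, chr12:85473770-85473889, plus strand: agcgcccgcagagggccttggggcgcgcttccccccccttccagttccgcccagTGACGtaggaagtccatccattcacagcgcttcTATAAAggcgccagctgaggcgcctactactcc
Fosb, chr7:19310046-19310165, minus strand: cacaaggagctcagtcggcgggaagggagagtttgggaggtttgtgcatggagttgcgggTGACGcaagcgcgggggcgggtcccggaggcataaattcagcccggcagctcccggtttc
Jun, chr4:95052223-95052342, minus strand: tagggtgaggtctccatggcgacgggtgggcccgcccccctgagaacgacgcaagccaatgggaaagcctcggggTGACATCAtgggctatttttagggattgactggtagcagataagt
Junb, chr8:84978749-84978868, minus strand: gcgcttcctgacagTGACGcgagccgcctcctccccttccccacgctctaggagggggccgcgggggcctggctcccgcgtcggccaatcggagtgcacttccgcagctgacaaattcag
Atf3, chr1:191183334-191183453, minus strand: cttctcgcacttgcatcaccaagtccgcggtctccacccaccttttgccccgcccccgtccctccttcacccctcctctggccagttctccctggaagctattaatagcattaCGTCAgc

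RefSeq promoter entries were found for 9 of the 10 genes. The RefSeq start of Jund lies upstream of the Jund model that was counted, so its window does not describe that model. Shares are over the 27025 genes with an entry, each counted once if any of its entries matched, and Maff has 3 entries. In the 250 bases before the start, TGACG on either strand was present in 6 of the 9, namely Fos, Fosb, Junb, Atf3, Batf and Maff, and in 19.8% of all genes. TGACATCA was found for Jun and Maff, and in 3.41% of all genes. The whole CRE, TGACGTCA, which includes the half-site, was found for Maff alone among the members and in 1.77% of all genes. The consensus TRE, TGACTCA or TGAGTCA, matched in none of the 9 and in 5.16% of all genes. The CArG box, CC and 6 bases of A or T followed by GG, also matched in none of the 9, and in 1.62% of all genes. Bases outside this window were not searched for any motif, so sites farther upstream are not excluded. The NF-kB consensus was matched for Fos, Fosb, Fosl2 and Maff, and in 6.73% of all genes. TATAAA, searched on the coding strand, was found for Fos alone among the members and in 8.94% of all genes. These matches describe letters in a window, since no binding was measured in these libraries.

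In bulk RNA, fewer cells with a transcript and less of it per cell cannot be told apart. At 10 TPM or more in each library stood Junb, Atf3, Jun, Fos, Maff, Fosl2 and Jund, which makes 7 of 10, against 13.2% of all 22015 nuclear protein-coding genes. In the second quantification 4 of the 10 were, for which the share over all coding genes is not given here. At 1 TPM or more in both stood 9 of 10, all but Fosl1, against 38.7% of coding genes. The median of the 10 genes was 23.9 TPM in replicate 2, against 37.0 TPM in replicate 1, a mean of 30.5 ± 9.27 TPM (SD, n = 2). The median of all nuclear protein-coding genes, of which 7459 had 0 counts in both libraries, was 0.24 TPM in replicate 2, against 0.33 TPM in replicate 1. The members together held 0.159% of all gene counts in replicate 2 and 0.132% in replicate 1.

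**Figure D1:**
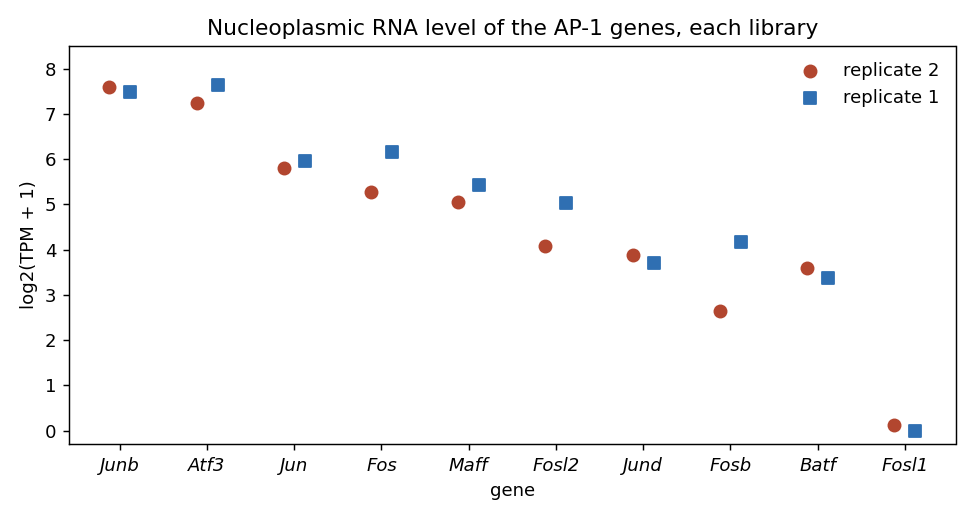
Level of each AP-1 gene as log2(TPM + 1) in replicate 2 (circles) and replicate 1 (squares), ordered by mean TPM. Junb and Atf3 lead in both libraries, and Fosl1 is at or next to 0 in both. On this scale the symbols of Fos, Fosl2 and Fosb lie farther apart than those of the Jun genes. With TPM rescaled over coding genes this does not hold for Fos and Fosl2. Replicate 2 and replicate 1 were then at 1134 and 681 for Junb, 321 and 234 for Jun, and 80.4 and 45.7 for Jund. They were at 221 and 268 for Fos, 93.2 and 121 for Fosl2, and 30.9 and 65.4 for Fosb.

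Among the Jun genes, Junb (ENSMUSG00000052837.6, chromosome 8, 84974484 to 84978718, minus strand) had the highest mean TPM of the family. It was at 193 TPM in replicate 2, against 178 TPM in replicate 1, on 10591 expected counts in replicate 2 and 3166 in replicate 1, a mean of 186 ± 10.5 TPM (SD, n = 2) and rank 171 among coding genes. JunB pairs with Fos proteins and is a weaker activator than Jun on many sites. Jun (ENSMUSG00000052684.4, chromosome 4, 95049034 to 95052222, minus strand), the founding member of the Jun proteins and a direct substrate of JNK, was at 54.6 TPM in replicate 2, against 61.2 TPM in replicate 1, a mean of 57.9 ± 4.62 TPM (SD, n = 2). Jund (ENSMUSG00000071076.6, chromosome 8, 70698949 to 70700616, plus strand), a Jun protein made in most cells at rest, was at 13.7 TPM in replicate 2, against 11.96 TPM in replicate 1, a mean of 12.8 ± 1.23 TPM (SD, n = 2). These SDs include the shift in TPM between the libraries. With TPM rescaled over coding genes the mean was 907 ± 320 for Junb (SD, n = 2). It was 277 ± 61.5 for Jun and 63.1 ± 24.6 for Jund. The 3 levels thus kept their order, Junb over Jun over Jund, with no overlap between the libraries. All 3 are intronless in their main isoform, so spliced and unspliced RNA of these genes cannot be distinguished. The Jund model of the counting annotation is 1668 bases long, and any reads outside it are not in its count.

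Among the Fos genes, Fos (ENSMUSG00000021250.13, chromosome 12, 85473890 to 85477273, plus strand), whose transcription is a textbook target of the ERK pathway through serum response factor, was at 37.7 TPM in replicate 2, against 70.1 TPM in replicate 1, a mean of 53.9 ± 22.9 TPM (SD, n = 2). Fosl2 (ENSMUSG00000029135.10, chromosome 5, 32135801 to 32157842, plus strand) encodes Fra-2, a Fos protein that lacks the strong activation domain of Fos. It was at 15.9 TPM in replicate 2, against 31.7 TPM in replicate 1, a mean of 23.8 ± 11.2 TPM (SD, n = 2). Fosb (ENSMUSG00000003545.3, chromosome 7, 19302696 to 19310051, minus strand) was at 5.27 TPM in replicate 2, against 17.1 TPM in replicate 1, a mean of 11.2 ± 8.37 TPM (SD, n = 2). All 3 were lower in replicate 2, as was the TPM of most coding genes, and as a ratio of TPM the gap was widest for Fosb. The median log2 TPM ratio over genes, replicate 2 over replicate 1, was -0.69. Relative to that median the ratio was -0.20 for Fos, -0.31 for Fosl2 and -1.01 for Fosb. The TPM of Fos also depends on how its reads are divided among isoforms of unlike length, given below. On scaled expected counts the log2 ratio of Fos was -0.58. Fosl1 (ENSMUSG00000024912.6, chromosome 19, 5447547 to 5455946, plus strand), which encodes Fra-1 and is in many cells induced later than Fos by AP-1 itself, had 4.84 expected counts in replicate 2 and 0 in replicate 1. That is 0.236 CPM (counts per 1000000 gene counts) in replicate 2, with an exact 95% Poisson interval of 0.0792 to 0.569, and 0 in replicate 1, where the upper end of the same interval is 0.357 CPM and the floor of 3 counts is 0.290 CPM. These limits cover counting error alone, because without molecular identifiers several reads can stem from 1 molecule. Fosl1 was thus not measurably above 0 in replicate 1 at this depth.

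Of the partners outside the Fos and Jun groups, Atf3 (ENSMUSG00000026628.13, chromosome 1, 191170296 to 191218039, minus strand) had a level close to that of Junb. It was at 151 TPM in replicate 2, against 199 TPM in replicate 1, a mean of 175 ± 34.3 TPM (SD, n = 2) and rank 184 among coding genes. Atf3 binds AP-1 and CRE sites and is known in mouse macrophages to restrain cytokine genes downstream of TLR4. Maff (ENSMUSG00000042622.14, chromosome 15, 79346621 to 79359076, plus strand), a small Maf protein with a basic region and zipper but no activation domain, was at 32.0 TPM in replicate 2, against 42.3 TPM in replicate 1, a mean of 37.1 ± 7.33 TPM (SD, n = 2). Batf (ENSMUSG00000034266.6, chromosome 12, 85686669 to 85709087, plus strand), which also lacks an activation domain and pairs with Jun proteins beside IRF factors in lymphocytes and dendritic cells, was at 11.1 TPM in replicate 2, against 9.37 TPM in replicate 1, a mean of 10.2 ± 1.24 TPM (SD, n = 2). Batf rested on 215 expected counts in replicate 2 and 57 in replicate 1, the fewest after Fosl1.

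Set in order of mean TPM, the family ran Junb, Atf3, Jun, Fos, Maff, Fosl2, Jund, Fosb, Batf and Fosl1. As shares of the members' summed TPM, Junb held 37.6% in replicate 2, against 28.7% in replicate 1, and Atf3 29.3% in replicate 2, against 32.1% in replicate 1. These neighbours changed places between the libraries, and so did Jun with Fos, Jund with Fosb and Fosb with Batf, so their order is not resolved. The other 5 steps, from Atf3 to Jun, from Fos to Maff, from Maff to Fosl2, from Fosl2 to Jund and from Batf to Fosl1, separated the libraries' ranges of shares without overlap. In the second quantification the order of Fos and Maff was not the same in both libraries, while Jund lay above Fosb without overlap. There Atf3 was above Junb in both libraries, with 33.1% against 32.8% of the members' TPM in replicate 2 and 36.3% against 24.3% in replicate 1. With 2 libraries no step was tested.

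Summed with Junb, the Jun genes outweighed the Fos genes in both libraries. Summed over the 3 Jun genes the level was 261 TPM in replicate 2, against 251.4 TPM in replicate 1, and over the 4 Fos genes 58.9 TPM in replicate 2, against 119 TPM in replicate 1. The log2 ratio of the sums, Jun over Fos genes, was 2.15 in replicate 2 and 1.08 in replicate 1, a mean of 1.61 ± 0.757 (SD, n = 2). The Jun genes were therefore 4.44-fold higher in replicate 2 and 2.11-fold higher in replicate 1. The second quantification, which shares the reads but not the alignments, gave log2 ratios of 2.08 in replicate 2 and 1.00 in replicate 1. By CPM, with no correction for length, they were 1.82 in replicate 2 and 0.59 in replicate 1. The direction was the same in both libraries and on each of these scales, and it rested on Junb. Without Junb, a sum chosen after seeing the data, the Jun genes summed to 68.3 TPM in replicate 2, against 73.1 TPM in replicate 1. The log2 ratio over the Fos genes was then 0.21 in replicate 2 and -0.70 in replicate 1, a mean of -0.24 ± 0.647 (SD, n = 2), so its direction turned between the libraries.

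Between the libraries Fos, Fosb and Fosl2 lay on 1 side and the other 6 members with a ratio on the other. Fosl1 had too few counts for a ratio. On expected counts scaled by TMM (a trimmed mean that sets the bulk of genes to 0), the log2 ratio of replicate 2 over replicate 1 was -0.58 for Fos, -0.88 for Fosb and -0.28 for Fosl2. It was 0.57 for Jun, 0.87 for Junb and 0.94 for Jund, and 0.35 for Atf3, 0.36 for Maff and 1.03 for Batf. The counting error of these ratios was at most 0.117 (SE, log2) apart from Batf, where it was 0.215. More than 2-fold from the centre lay 1 of the 9 members with 10 or more counts in each library, Batf, against 6.83% of 12774 genes so filtered. Higher by more than 2-fold were 3.93% of genes and lower 2.9%, and among coding genes so filtered 3.2% and 1.6%. The same share over all genes was 6.86% with DESeq2 size factors, 24.5% with no filter on low counts, 12.5% on estimated counts of the second quantification and 9.9% on TPM. It was 4.89% with centring on genes nearest in GC content and 6.46% on those nearest in length, both chosen after seeing the data. Members past 2-fold were then Batf with DESeq2 factors, Batf and Fosl1 with no filter, Fosb on TPM and with the GC centring, and none in the other cases. Fosb had a lower ratio than all but 4.2% of genes, and Fos than all but 10.6%. Batf had a higher ratio than 96.4% of genes, Jund than 95.3% and Junb than 94.1%. Each member but Batf was thus within the range of 2-fold that held over 9 in 10 genes, and with 1 library on each side no ratio was tested.

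**Figure D2:**
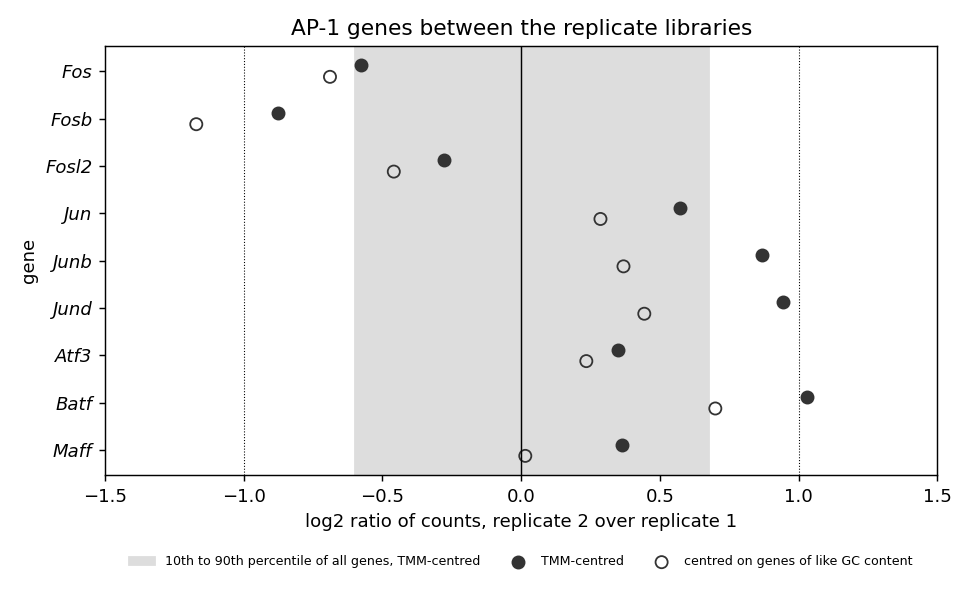
Log2 ratio of counts, replicate 2 over replicate 1, for the 9 AP-1 genes with 10 or more counts in each library, centred by TMM (filled) or on the 500 genes nearest in GC content (open). With the 10th to 90th percentile of all genes as a grey band, -0.60 to 0.68, and dotted lines at 2-fold, the 3 Fos genes lie left of 0 and the other 6 right of it under both centrings, with Maff at 0.02 after the GC centring.

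GC content moved with this ratio over all coding genes. With coding genes cut into 5 equal bins by GC content of the main isoform, the median log2 ratio was 0.36 in the most GC-rich bin and -0.25 in the least. More than 2-fold higher were 8.05% of genes in the most GC-rich bin, which holds Batf, and 0.482% in the least. The main isoforms of the members were GC-rich, with 62.6% for Junb, 67.1% for Jund and 55.5% for Jun, and 51.9% for Fos, 53.1% for Fosl2 and 56.0% for Fosb. When each ratio was centred on the 500 genes nearest in GC content, an alternative chosen after seeing the data, the Jun genes came to 0.29 for Jun, 0.37 for Junb and 0.44 for Jund. The Fos genes came to -0.69 for Fos, -0.46 for Fosl2 and -1.17 for Fosb, with only 1.2% of genes below Fosb. Batf came to 0.70, Atf3 to 0.24 and Maff to 0.02. The sides of the Fos and Jun genes thus stayed as they were, with smaller values for the Jun genes and larger ones for the Fos genes. Coding genes with a single-exon main isoform, the form of the Jun genes, had a median ratio of 0.04, and those with several exons 0.03. More than 2-fold higher were 7.11% of the single-exon genes and 3.05% of those with several exons. More than 2-fold lower were 2.89% and 1.55%. Whether exon structure bears on the ratios of the Jun genes was not tested. The part of RNA input, which was larger for replicate 2, was not tested.

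**Figure D3:**
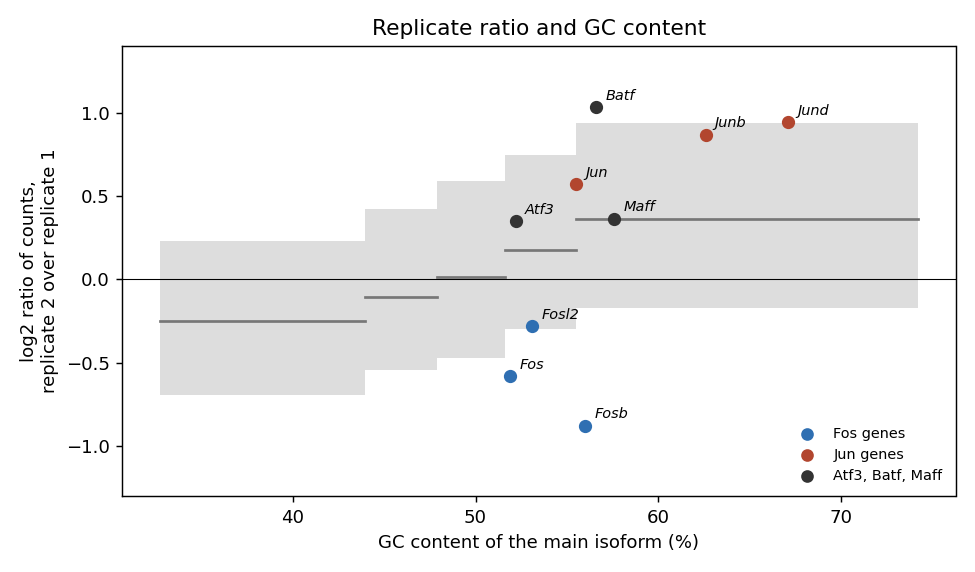
Log2 ratio of counts, replicate 2 over replicate 1, against the GC content (%) of the main isoform, with grey blocks for the 10th to 90th percentile of coding genes in each of 5 equal bins of GC content and grey lines at their medians, which run between -0.25 and 0.36. Fos and Fosb lie below the block of their bin, Batf and Jund lie at or above the upper edge of theirs, and the other members lie inside.

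The transcript tables showed how far each member's RNA was assigned to annotated isoforms that encode the protein. Over all members, protein-coding isoforms made up 93.7% of TPM in replicate 2 and 94.1% in replicate 1. This total was carried by Junb, Atf3 and Jun, and single genes differed widely. Jun and Jund have 1 annotated isoform each, and Junb-201, the coding isoform of Junb, took 99.6% of its gene's TPM in replicate 2 and 99.4% in replicate 1. For comparison, among 5284 coding genes with a noncoding isoform and at least 100 counts in both libraries, the median noncoding share was 34.1% in replicate 2, against 31.2% in replicate 1. In the second quantification it was 44.4% in replicate 2, against 45.7% in replicate 1.

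Batf, Fosl2 and Fos had the largest noncoding shares of the family in replicate 2, in both quantifications. By the second quantification Batf was at 45.6% in replicate 2, against 42.9% in replicate 1, and Fosl2 at 49.8% in replicate 2, against 45.4% in replicate 1, close to the median gene there. Isoform Batf-202, a single exon annotated as a retained intron with 84.8% of its bases outside the exons of the coding isoform, took 46.9% of Batf TPM in replicate 2 and 45.7% in replicate 1. It rested on 61 counts in replicate 2 and 15 in replicate 1. The single-exon retained-intron isoform of Fosl2, with 81.8% of its 3472 bases outside coding-isoform exons, took 32.0% of Fosl2 TPM in replicate 2 and 29.1% in replicate 1. Its other retained-intron isoform, of 1707 bases, took 9.89% in replicate 2, against 11.2% in replicate 1. In the first quantification each of these 3 isoforms' shares moved by under 3 percentage points between the libraries.

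Fos was the member whose noncoding share differed most between the libraries in the first quantification. The coding isoform Fos-201 took 47.9% of Fos TPM in replicate 2 and 75.0% in replicate 1. Fos-202, a short noncoding isoform of 631 bases that begins 24 bases before the second exon of Fos-201 and otherwise lies within its exons, took 45.3% in replicate 2, against 13.9% in replicate 1. In expected counts Fos-202 had 257 in replicate 2, with a posterior SD of 22.8 in the authors' deposited table, and 44.98 in replicate 1, with a posterior SD of 16.9. Fos-201 had 1175 counts in replicate 2 and 1114 in replicate 1, in libraries that differed about 2-fold in depth. Because nearly all of Fos-202 lies in exons of Fos-201, its share depends on how reads in common are divided. In the second quantification Fos-202 took 44.4% in replicate 2, against 32.6% in replicate 1, so the direction held and the gap was smaller. Fos-203, which also starts inside the first intron and has 30.7% of its bases outside coding-isoform exons, took 6.85% in replicate 2, against 10.2% in replicate 1.

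**Figure D4:**
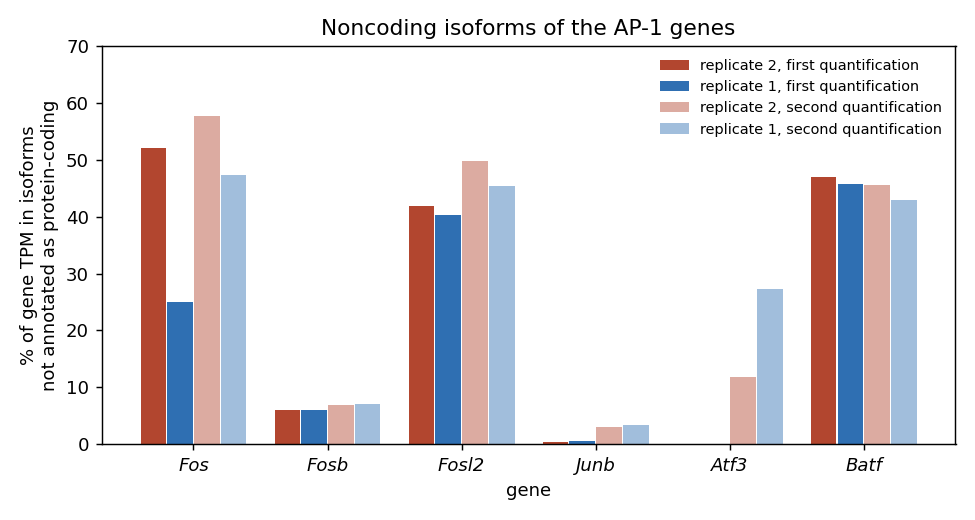
Percent of gene TPM in isoforms that are not annotated as protein-coding, for the 6 measured AP-1 genes that have such isoforms, in both libraries and both quantifications. Fosl2 and Batf lie between 40.3% and 49.8% in all bars, Fos is lowest in replicate 1 of the first quantification, Fosb and Junb stay under 10%, and Atf3 is at 0 in the first and at 11.9% and 27.2% in the second.

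For Atf3 the quantifications gave different answers. Its noncoding isoform, of 517 bases that all lie in exons of coding isoforms, had 0 counts in both libraries in the first quantification. The second gave it 11.9% of Atf3 TPM in replicate 2 and 27.2% in replicate 1. Both coding isoforms of Atf3 encode proteins of the same 181 codons, so their division does not change the coding total.

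Fosb and Maff have several coding isoforms. Fosb-201, which encodes the full FosB protein of 338 codons, took 72.1% of Fosb TPM in replicate 2 and 51.8% in replicate 1, and in the second quantification 78.1% in replicate 2, against 76.3% in replicate 1. FosB is known for a short form, ΔFosB, made by removal of an intron within the last exon, which takes off the activation domain at the end of the protein. That intron, 140 bases at chromosome 7, 19305007 to 19305146, was absent from Fosb-206 and Fosb-207, which together took 21.8% of Fosb TPM in replicate 2 and 27.0% in replicate 1. In the second quantification the same isoforms took 14.9% in replicate 2, against 15.5% in replicate 1. Fosb-206, of 237 codons, had 0 counts in replicate 2 and 12.1 in replicate 1, so the share was mostly that of Fosb-207. Fosb-207 also skips the exon with the basic region shown above. Its posterior SD of 38.4 counts in replicate 2, on 130 counts, limits how firmly it can be placed. The 4 Maff isoforms all contain the basic region. Maff-201, Maff-202 and Maff-203 have the same 156 codons, and Maff-201 took 65.3% of Maff TPM in replicate 2 and 27.7% in replicate 1, and in the second quantification 21.8% in replicate 2, against 12.5% in replicate 1. Maff-204, of 633 bases and 101 codons, took 22.2% of Maff TPM in replicate 2, against 21.1% in replicate 1. In the second quantification it was the largest Maff isoform, with 44.7% in replicate 2, against 48.9% in replicate 1.

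Genes around AP-1 in the pathway were mostly detected. Of 33 other bZIP factors 28 were at or above 1 TPM in each library and 14 at 10 TPM or more, and their median was 8.24 TPM in replicate 2, against 12.1 TPM in replicate 1. Nfe2l2, which encodes the antioxidant factor NRF2, led with 104 TPM in replicate 2, against 156 TPM in replicate 1. Creb5 was at 60.3 TPM in replicate 2, against 123 TPM in replicate 1. Jdp2, a Jun partner that represses AP-1, was at 50.7 TPM in replicate 2, against 70.9 TPM in replicate 1. Cebpe was at 0.14 TPM in replicate 2 and 0 in replicate 1, and Hlf at 0 in replicate 2 and 0.02 TPM in replicate 1. By TPM of the first quantification Junb and Atf3 thus stood above every one of these 33 factors in both libraries. By expected counts, with no correction for length, this held in replicate 2 alone. In replicate 1 Creb5 had 5823 and Maf, named after its values were seen, 4369, against 3928 for Atf3 and 3166 for Junb. The second quantification is not given here for these factors.

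Of 19 genes of the MAP kinase cascade 16 were at or above 1 TPM in each library and 10 at 10 TPM or more. Mapkapk2, which encodes the kinase MK2 downstream of p38, was at 128 TPM in replicate 2, against 216 TPM in replicate 1. Map2k3, which encodes a kinase upstream of p38, was at 57.1 TPM in replicate 2, against 82.5 TPM in replicate 1, and Mapkapk3 at 34.0 TPM in replicate 2, against 43.0 TPM in replicate 1. Mapk11 was at 0.41 TPM in replicate 2, against 0.63 TPM in replicate 1, and Mapk10, the JNK gene known from neurons, at 0.04 TPM in replicate 2, against 0.08 TPM in replicate 1. All 6 genes of serum response factor and its cofactors were at or above 1 TPM in each library and 2 at 10 TPM or more. Mrtfa was at 51.2 TPM in replicate 2, against 77.9 TPM in replicate 1, Elk4 at 16.04 TPM in replicate 2, against 32.6 TPM in replicate 1, and Elk3 at 8.70 TPM in replicate 2, against 15.4 TPM in replicate 1. Srf itself was the lowest with 3.70 TPM in replicate 2, against 5.46 TPM in replicate 1, after Elk1 with 5.85 TPM in replicate 2, against 10.1 TPM in replicate 1.

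Of 20 genes with known AP-1 sites 14 were at or above 1 TPM in each library and 12 at 10 TPM or more. Tnf was at 1067 TPM in replicate 2, against 1533 TPM in replicate 1, Spp1, the osteopontin gene, at 747 TPM in replicate 2, against 894 TPM in replicate 1, and Il1b at 554 TPM in replicate 2, against 847 TPM in replicate 1. The other end of the list held Mmp3, Mmp1a, Il2 and Fasl, which had 0 counts in both libraries. The floor of 3 counts was 0.146 CPM in replicate 2 and 0.290 CPM in replicate 1, and levels under it can go unseen. Besides Mmp1a and Mmp3, the list held the matrix protease genes Mmp13 and Mmp9, named after their values were seen. Mmp13 was at 26.1 TPM in replicate 2, against 38.1 TPM in replicate 1. Mmp9 was at 0.15 TPM in replicate 2 and 0 in replicate 1. Of the genes with 10 or more counts in each library, 0 of 18 of the MAP kinase list, 0 of 6 of the serum response factor list and 0 of 14 of the AP-1 site list differed by more than 2-fold between the libraries after TMM scaling, against 6.83% of all genes so filtered. Among coding genes so filtered 3.2% were higher and 1.6% lower by more than 2-fold.

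**Figure D5:**
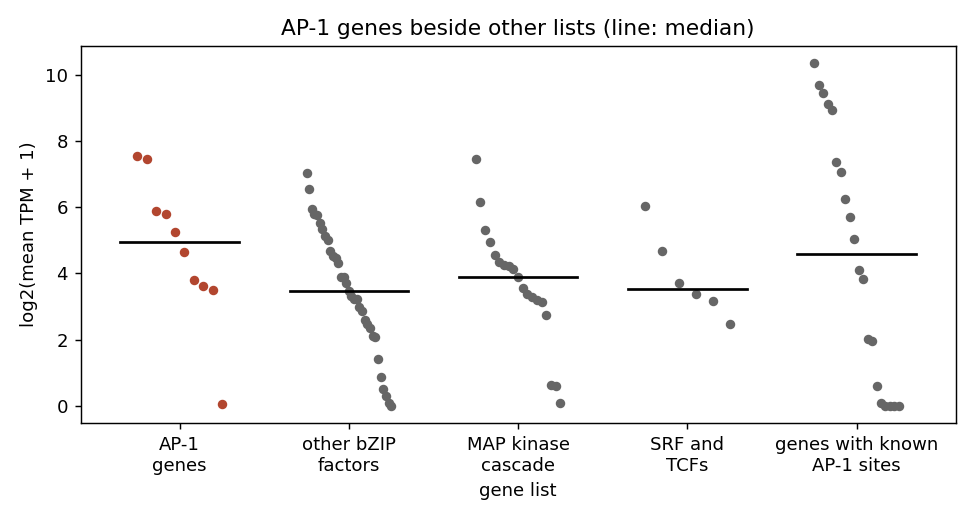
Mean TPM of each gene as log2(mean TPM + 1) for the 10 AP-1 genes and the other lists, 1 point per gene, with a line at each list's median. The AP-1 genes run between Fosl1, with a mean of 0.045 TPM, and Junb, with a mean of 186 TPM.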

How the data were processed

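Expected counts and TPM per gene and per transcript were deposited by the authors in files whose headers follow RSEM, made from transcriptome alignments on mm10 with annotation M21, per the deposited readme files. A second file of each library, with a kallisto header, gives the authors' estimated counts and TPM per transcript, made from the reads. Program versions, strand setting and filters were not stated. Rows that name no gene (0.0968% of all expected counts in replicate 2, against 0.504% in replicate 1) were left out of CPM.

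Expected counts were rounded to whole numbers for the replicate ratio, computed with TMM factors from edgeR 4.0.16, a minimum of 10 counts in each library and an added 0.5 count. DESeq2 1.42.0 size factors were an alternative, as were no filter, the second quantification, TPM, and, chosen after seeing the data, centring on genes nearest in GC content or length. The ratio was checked on simulated data. With 1 group nothing was tested, and SDs are over 2 libraries. Named genes were all members and, in each other list, the 3 highest and 2 lowest, with every gene tied at 0. Genes marked as named or chosen after their values were seen come on top of these. Of the marker lists only 1 gene is named. Named isoforms held at least 5% of their gene's TPM somewhere. Members and lists were chosen with earlier results of these data known.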

Additional observations from a re-analysis of the deposited data

How the results depend on the processing

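The count of members at 10 TPM or more in each library was 7, and 4 in the second quantification, where members had lower TPM; the cause was not tested. It was 8 by CPM and 9 with TPM rescaled over coding genes, which raises every coding gene. The share of all coding genes past the same cut is given for the main scale alone. These other counts therefore do not set the members apart from other genes. The median of the members, 30.5 TPM, was 17.3 TPM in the second quantification, 141 TPM with rescaling and 83.1 CPM, and 23.9 to 37.0 TPM when either replicate was left out. The log2 ratio of Jun over Fos genes, 1.61, was positive in all alternatives but the sum without Junb, chosen after seeing the data, where it was -0.24 because Junb carries most of the Jun sum. Averaging log2(TPM + 0.1) over genes gave 3.05, as Fosl1 near 0 then counts as much as Fos. Members more than 2-fold from the centre between replicates numbered 1, and 2 with no filter, where Fosl1 enters on under 5 counts. They numbered 0 on estimated counts of the second quantification, where Batf was at 0.96, and 0 with centring on length, where it was at 0.85. On TPM (Batf 0.94, Fosb -1.01) and with GC centring (Batf 0.70, Fosb -1.17) Fosb passed 2-fold in place of Batf. The protein-coding share of TPM, 93.9%, was 84.9% in the second quantification and 96.4% by counts. Leaving out a replicate leaves no replicate ratio. No paired analysis was possible because the study has 1 group. Low counts limit Fosl1 (4.84 and 0) and isoforms such as Batf-202 (61 and 15) and Fosb-206 (0 and 12.1), in replicate 2 and replicate 1.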

Other observations

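Among the other bZIP factors, 29 had at least 10 counts in each library. Of these, 2 were more than 2-fold higher in replicate 2, against 3.93% of all genes and 3.2% of coding genes. They were Batf2 with a log2 ratio of 1.31 and Cebpd with 1.27, both named after their values were seen. Batf2 rested on 120 expected counts in replicate 2, against 26 in replicate 1, and Cebpd on 121 in replicate 2, against 26.9 in replicate 1. None of the 29 was more than 2-fold lower. Crem, which encodes a CREB relative and was likewise chosen after its values were seen, had a log2 ratio of -0.84 at 2.32 TPM in replicate 2, against 5.92 TPM in replicate 1.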
